A study of Drosophila melanogaster with 12 samples.

Results

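The regions described here are offset blocks, runs of neighbouring nucleosomes in neural progenitors that are all out of register with the nucleosomes predicted in glia. The blocks were selected on the distance from each progenitor nucleosome to the closest glial one. A block is a maximal run of at least 3 consecutive progenitor nucleosomes, with neighbouring starts at most 500 bp apart, in which every start lies 65 to 95 bp from the closest glia start on the same chromosome arm. The rule found 8387 blocks. They hold 29037 nucleosomes of the 522119 in the progenitor map, or 5.56%, and every one of them was counted without a further filter.

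The maps come from MNase-seq of Drosophila melanogaster embryos, in which micrococcal nuclease (MNase) cuts the DNA between nucleosomes and the protected DNA is sequenced. Glial nuclei came from embryos aged 12 to 14 h after egg laying, that carried repo-Gal4 together with UAS-3xFLAG-blrp-mCherry-RanGap over the balancer Tm3B. Progenitor nuclei, named GNP by the study (Gcm-expressed neural progenitor) and early glial cells in the labels, came from embryos aged 5 to 7 h, that carried gcm-Gal4 and UAS-mCDGFP over cyo, together with UAS-3xFLAG-blrp-mCherry-RanGap. In both, INTACT pulled down nuclei that carry the FLAG-tagged RanGap fusion from pooled, formaldehyde-fixed embryos. These genotypes are as labelled. The study's methods describe the collected GNP embryos as offspring of self-crossed flies without cyo and name the glial balancer Tm3. The tag marks whichever cells use the driver, and gcm is also active in blood cell precursors. Cell type, driver line, embryo age and library differ together and cannot be told apart. The files hold positions only, so the labelled cell types could not be checked against marker genes. The glia map has 510664 nucleosomes. Each map comes from 1 library of unknown depth, so no value below has a replicate check, no test was run, and the 95% intervals cover counting error only.

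A nucleosome is a stretch of DNA wound around a core of histone proteins, and a linker joins it to the next one. Where many cells place nucleosomes alike, the centres (dyads) repeat at a steady distance, the nucleosome repeat. Remodelling enzymes such as the ISWI complexes of Drosophila slide nucleosomes and space them evenly, often starting from a fixed barrier such as a promoter. DNA in a linker is generally more accessible to regulatory proteins than DNA near a dyad, so where 2 maps alternate, the DNA near a dyad in one map lies at the edge of a nucleosome or in the linker in the other. The gene gcm encodes the transcription factor that starts glial differentiation in the fly embryo, and repo, one of its targets, is a homeobox gene of differentiated glia.

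The distances that define the blocks surround a second maximum in the GNP map. Of all GNP nucleosomes, 114890 or 22.0% lay 65 to 95 bp from the closest glia start. Blocks hold 25.3% of these, and the remaining 85853 stand alone, in pairs, or in runs broken by a wide gap. Within blocks the median difference was 80 bp (quartiles 73 and 87 bp), and the median SD of the difference inside a block was 8.02 bp. The limits cut through a smooth distribution. The GNP map has 3428 nucleosomes at 65 bp and 3422 at 64 bp just outside, and 2792 at 95 bp against 2674 at 96 bp. Blocks contain 735 members at 65 bp and 699 at 95 bp, while 203 nucleosomes next to a block lay at 64 bp and 190 at 96 bp. Members at one of the exact limits occur in 15.9% of blocks. All of these values were used by the rule and are given as a description.

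**Figure D1:**
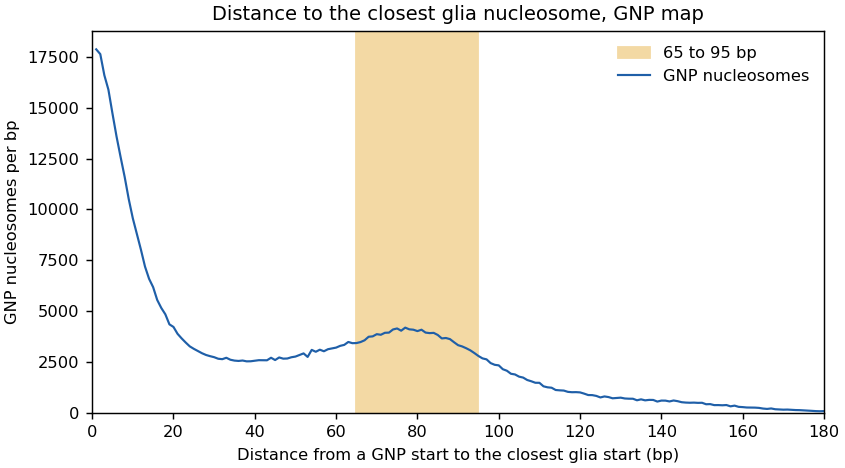
Number of GNP nucleosomes (vertical axis, per bp) by the distance in bp from their start to the closest glia start (horizontal axis, from 1 bp), with the shaded band at 65 to 95 bp that the rule uses. The curve has its second maximum in the band, at 77 bp with 4187 nucleosomes, and passes the band's limits without a step.

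Most blocks were short. Of the 8387 blocks, 5715 (68.1%) had 3 members, 1846 had 4, 552 had 5 and 274 had 6 or more. The longest had 10 members. Blocks spanned 443 to 1865 bp with a median of 573 bp, together 5380 kb. For comparison, the same procedure at 0 to 10 bp, which finds nucleosomes kept in register between the cell types, gave 12010 blocks with up to 12 members. At 35 to 64 bp, a band of nearly the same width, it gave 2035 blocks with up to 7 members. These bands hold 28.7% and 16.4% of all GNP nucleosomes, against 22.0% at 65 to 95 bp, so the block numbers have the same order as the bands themselves.

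The block with the most members lies on arm 3R, from 10735747 to 10737584 (dm3, start of the first to end of the last nucleosome). It is shown in full because it also has the most members among blocks in which every interval between GNP neighbours holds exactly 1 glia dyad. Measured from the first GNP start, glia starts lie at -83, 111, 308, 499, 663, 849, 1013, 1178, 1411 and 1609 bp, and another follows at 1877 bp. The GNP starts lie at 0, 206, 394, 597, 755, 945, 1106, 1257, 1530 and 1691 bp. Each GNP nucleosome therefore sits between glia nucleosomes over the whole block. The closest glia start was at a lower coordinate for 6 members and at a higher one for 4, with differences from 66 to 95 bp. Directly outside, the maps are in register. The GNP nucleosome before the block lies 15 bp from its glia counterpart and the one after it 7 bp.

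The next blocks by size alternate in most of their intervals. The block on 3L from 10766723 to 10768588 has 9 members with differences from 68 to 91 bp, bordered by nucleosomes at 18 and 9 bp. The block on 2L from 21837158 to 21838722 has 9 members from 66 to 92 bp, between flanks at 17 and 1 bp. Both thus run from one in-register nucleosome to another. On X, the block from 8059370 to 8061215 has 9 members from 78 to 93 bp. One of its flanks misses the limit at 96 bp and the other lies at 16 bp. A further block on 3L, from 21093320 to 21094903, has 8 members, 7 of them with the glia start at the higher coordinate. The longest on 2R, from 16828395 to 16829862, has 8 members, 6 of them with the glia start at the lower coordinate.

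Long blocks displaced in a single direction were rarer. The longest with all glia starts higher has 7 members and lies on 3L from 9271898 to 9273474. Its differences were 87, 79, 80, 76, 88, 83 and 90 bp, the GNP nucleosome before it had a glia nucleosome at exactly the same position, and the one after it lay 40 bp from the closest glia start. All members were thus displaced in the same direction by 76 to 90 bp, but the 2 maps do not match nucleosome by nucleosome. Glia has a further nucleosome inside the block, in a GNP interval of 448 bp. Another glia start, at -112 bp from the first GNP start, lies between the block and the flank before it. The next GNP start before that flank is at -8367 bp. With all glia starts lower, the most members were 6, in 4 blocks. The one of these with the smallest SD of the signed differences lies on 2R from 12059092 to 12060156. Its differences were -78, -67, -83, -65, -69 and -68 bp. The longest block on arm 4, from 801513 to 802665, also has 6 members on the lower side, at -74, -71, -69, -88, -86 and -70 bp. The GNP nucleosome before the block lay 135 bp from the closest glia start on 2R and 119 bp on arm 4, and the one after it 15 bp on 2R and 6 bp on arm 4. Both blocks thus bordered an in-register nucleosome on 1 side only.

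**Figure D2:**
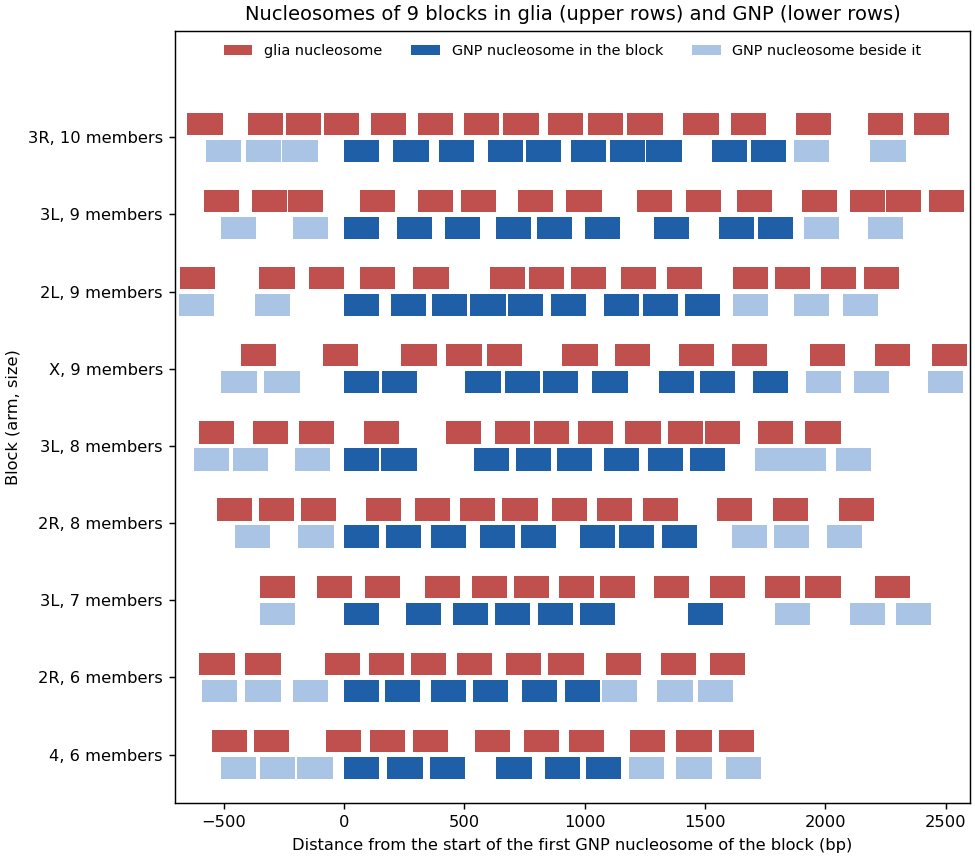
Predicted nucleosomes of the 9 named blocks as bars from start to end, glia in the upper row and GNP in the lower row of each pair, by distance in bp from the first GNP start of the block (horizontal axis), with each block's arm and number of members on the vertical axis. In the uppermost block, on 3R, 10 GNP nucleosomes (dark blue) alternate with glia nucleosomes (red), and the flanking GNP nucleosomes (light blue) lie 15 and 7 bp from a glia nucleosome.

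The name half-repeat displacement was then checked against measures that the rule used only in part. The rule fixes the distance to the closer glia dyad and leaves the farther one free. The farther dyad lay at a median of 128 bp (quartiles 101 and 180 bp), compared with 80 bp for the closer one. As a relative position between the glia dyads on either side, with 0 at the lower and 1 at the higher, the median was 0.5 (quartiles 0.383 and 0.615). Members within 0.4 to 0.6 numbered 12905 of 29037, or 44.4% (95% Wilson interval 43.9% to 45.0%), against 15.8% of all GNP nucleosomes. The limits keep members away from glia dyads, while the 15.8% includes nucleosomes close to them. Such nucleosomes were rarely or never near the middle. In blocks in register 0 of 42647 members lay within 0.4 to 0.6, and in blocks at 35 to 64 bp 1.01% did. The larger share is therefore built in at least in part. Whether any of it remains beyond the limits was not tested. With limits of 60 to 100 bp the share of members was 41.1%. Of the members, 5025 (17.3%) lay 65 to 95 bp from the glia dyads on both sides, and in 25 blocks (0.298%) every member did. The name thus holds for fewer than 1 in 2 members by relative position and for 17.3% by both distances. All other members had the farther glia dyad more than 95 bp away.

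Alternation between the maps was nearly complete. Of the 20650 intervals between neighbouring members, 19074 or 92.4% (92.0% to 92.7%) held exactly 1 glia dyad, 871 held none and 705 held 2. Over all GNP intervals of at most 500 bp the share with exactly 1 was 64.9%. In 6898 blocks (82.2%, 81.4% to 83.0%) every interval held exactly 1. Among 3-member blocks the share was 85.9% (85.0% to 86.8%), against 42.9% of all windows of 3 GNP nucleosomes. Blocks at 35 to 64 bp, which are also held away from glia dyads, had exactly 1 in 3355 of 4473 intervals (73.7% to 76.3%). The limits restrict where glia dyads can lie, so these shares describe the layout of the blocks.

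The rule used the size of the difference and not its side, so the direction of displacement could be read from the blocks. All members had their closest glia start on the same side in 1696 blocks, 20.2% (19.4% to 21.1%). The glia starts were at the higher coordinate in 845 of these and at the lower in 851, so 49.8% were displaced toward higher coordinates (47.4% to 52.2%). Over single members the sides were equally balanced, with 14400 higher, 14474 lower and 163 at equal distance on both sides. In most blocks, 6691, the closest glia start changed side at least once. The share in 1 direction was 24.9% (23.8% to 26.0%) for 3-member blocks, against 25.4% of all windows of 3, and 3.28% (1.74% to 6.12%) for blocks of 6 or more. Blocks at 35 to 64 bp were displaced in 1 direction in 47.0% of cases (44.9% to 49.2%). Neighbouring members of these blocks cannot share a closest glia start that lies between them. They would then be closer together than any neighbouring starts in the GNP map. In offset blocks this change of side can occur. The difference between both kinds of block is thus partly built in, and how much was not tested. In-register 3-member blocks had a single direction in 21.05% (20.2% to 22.0%). A difference of 0 bp has no side, so an in-register block with such a member never counts as displaced in 1 direction. The GNP map has 9030 nucleosomes at 0 bp, and offset blocks cannot contain them. The in-register share is therefore lowered by this counting, and how much was not tested. The share in 3-member offset blocks was thus at the level of all windows of 3.

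When every member had to be the closest GNP nucleosome of its own glia partner as well, 3570 blocks were left, and 52.4% of them had a single direction. This rise is built in, because neighbouring members that face the same glia nucleosome cannot both be its closest partner.

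Spacing within the blocks was measured next. The median distance between neighbouring glia dyads that both lie inside a block was 193 bp (upper quartile 224 bp), and between neighbouring GNP members it was 182 bp (upper quartile 219 bp). Over the whole maps, for distances up to 500 bp, the medians were 209 bp in glia (178 and 258 bp) and 200 bp in GNP (174 and 250 bp). The glia value counts only distances that fit inside a block, which favours short ones. Over all glia distances that overlap a block, which favours long ones, the median was 206 bp (n = 28871), close to the glia map. GNP members were thus closer together than the GNP map as a whole, while the glia value depended on which distances were counted. Blocks in register had medians of 190 bp for glia dyads inside them, 197 bp for all glia distances overlapping them and 194 bp for GNP members. Size made little difference. GNP members were 181 bp apart in 3-member blocks and 183 bp in blocks of 6 or more.

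Part of the short GNP spacing is set by the limits. Where the closest glia starts of neighbouring members face each other, both members usually flank the same glia nucleosome. Those 6162 intervals had a median of 164 bp (quartiles 157 and 173 bp). Where the closest starts lie on the same side, the limits set a floor. The glia start between the members cannot be nearer to the other member than that member's own closest start. The interval is therefore at least as long as the differences of both members added together. The 10651 same-side intervals had a median of 192 bp (176 and 226 bp), below the GNP median of 200 bp. How far the floor shapes this value was not tested. The 3591 intervals with closest starts facing apart had a median of 217 bp (upper quartile 260 bp). The GNP spacing in single-direction blocks was 190 bp, close to the same-side value.

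The surroundings show how far the offset reaches. Nucleosome centres were counted around the middle member of the 3-member blocks, averaged over both sides. Glia had its first peak at 87 bp and its next at 271 bp, and GNP had its first peaks at 168 and 365 bp. Beyond the members, between 450 and 620 bp, GNP peaked at 562 bp, 1.70-fold above its trough there, and glia at 530 bp, 1.23-fold above its trough. Around blocks in register the same stretch gave 1.22-fold for glia and 1.63-fold for GNP. Both sets were centred on GNP nucleosomes, so the heights of the peaks cannot be compared between the maps. Within each map, the values beyond the members were close around both kinds of block.

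**Figure D3:**
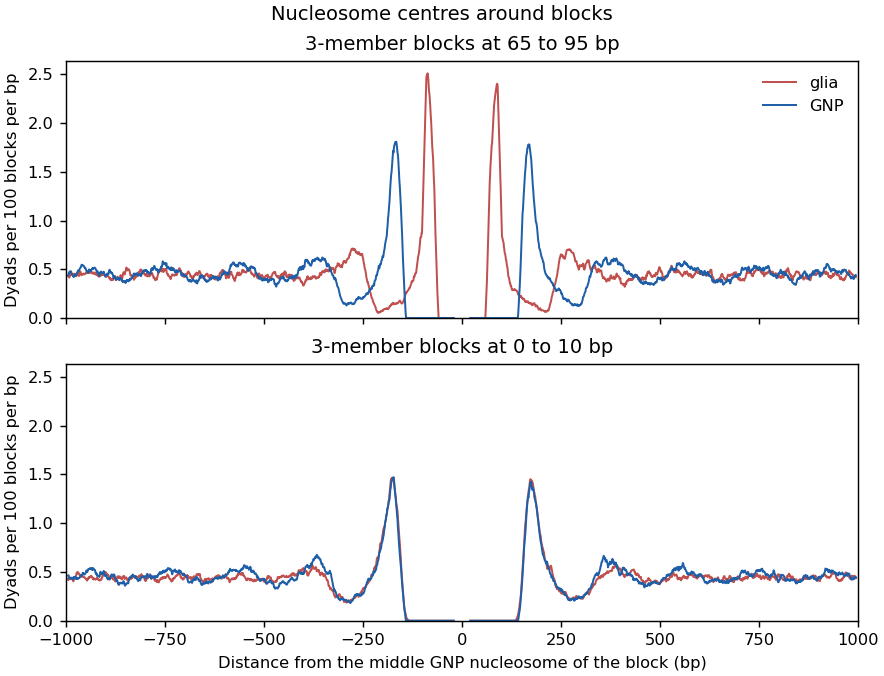
Nucleosome centres per 100 blocks and bp, smoothed over 11 bp (vertical axis), by distance in bp from the middle GNP nucleosome (horizontal axis) of 3-member blocks at 65 to 95 bp (upper panel, n = 5715) and at 0 to 10 bp (lower panel, n = 7797), with glia in red and GNP in blue. In the upper panel the glia peaks at 87 and 271 bp fall between the GNP peaks at 168 and 365 bp. In the lower panel the first peaks nearly coincide, at 175 bp in glia and 173 bp in GNP, and the next lie at 381 and 358 bp. The middle nucleosome itself is not drawn.

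The distances outside the blocks came close to those of the whole map by the third nucleosome outward. The first GNP nucleosome beyond a block cannot be at 65 to 95 bp, so it was set beside GNP nucleosomes outside those limits. Within 20 bp of a glia start were 7576 of 16700 flanking nucleosomes, 45.4% (44.6% to 46.1%), against 51.7%. Over 95 bp were 20.7%, against 16.9%, and the median difference was 27 bp, against 19 bp. The second nucleosome outward, which the rule does not limit directly, was within 20 bp in 42.4% (41.6% to 43.1%), against 40.3% of all GNP nucleosomes, and at 65 to 95 bp in 19.8% (19.2% to 20.4%). From the third to the eighth, the share within 20 bp was between 39.5% and 40.5% and the share at 65 to 95 bp between 22.1% and 23.3%, next to 22.0% in the whole map. The second nucleosome was thus offset less often than the whole map and slightly more often in register. Its neighbour toward the block is always outside 65 to 95 bp, which does not hold for the whole map. How much of the difference this accounts for was not tested. Beside blocks in register, the second nucleosome outward was within 20 bp in 37.1% (36.5% to 37.7%) and at 65 to 95 bp in 24.0% (23.4% to 24.5%). There the first nucleosome outward is held over 10 bp in the same way. Blocks of 6 or more members had a flanking nucleosome within 20 bp in 50.0% (45.8% to 54.2%) of cases.

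**Figure D4:**
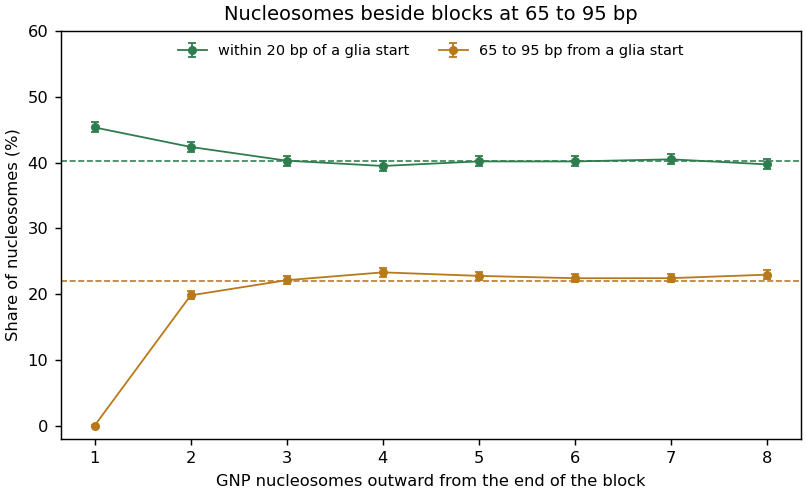
Share of GNP nucleosomes (vertical axis, %) within 20 bp of a glia start (green) and at 65 to 95 bp (ochre), by the number of nucleosomes outward from either end of an offset block (horizontal axis). Points carry 95% Wilson intervals and dashed lines give the whole GNP map, 40.3% and 22.0%. The first point of the ochre line is 0 by the rule, and both lines lie close to the map from the third nucleosome on.

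Stretches bounded by in-register nucleosomes on both sides allow the nucleosomes of each map to be counted between shared end points. In 1716 stretches every GNP nucleosome in between, at least 3, was at 65 to 95 bp. Glia had fewer nucleosomes than GNP in 535 of them (31.2%, 29.0% to 33.4%), the same number in 779 (45.4%, 43.1% to 47.8%) and more in 402 (23.4%, 21.5% to 25.5%). In 7673 stretches of the same kind with none at 65 to 95 bp, glia had fewer in 46.4% (45.3% to 47.6%), the same number in 41.0% and more in 12.6% (11.9% to 13.4%). With exactly 3 GNP nucleosomes in between, glia had more in 23.5% of the offset stretches (21.2% to 26.0%) and in 12.7% of the others (11.8% to 13.7%). The comparison stretches can hold distances over 95 bp, which lie in wide glia intervals. In 35974 stretches with some but not all at 65 to 95 bp, glia had fewer in 40.7%, the same number in 40.4% and more in 18.9%. A different number in glia was thus found in more than 1 in 2 stretches of each kind, and slightly less often in the offset ones. With exactly 3 in between, equal numbers made up 46.7% of offset stretches, 44.2% with none and 46.5% with some. The added and missing nucleosomes were more even in number in offset stretches than in either comparison.

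The 779 offset stretches with equal numbers could be matched nucleosome by nucleosome in order. The mean displacement of such a stretch had a median size of 86 bp (quartiles 77.7 and 97.2 bp). Glia lay at the higher coordinate in 378 of them, 48.5% (45.0% to 52.0%). The size follows largely from the limits, and the sides were balanced within the interval.

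Gaps of 150 bp or more without a nucleosome, about a nucleosome's length, were counted inside or directly beside blocks, between neighbours at most 500 bp apart. Offset blocks had one in the glia map in 2929 cases (34.9%, 33.9% to 36.0%) and in the GNP map in 3185 (38.0%, 36.9% to 39.0%). Since longer blocks have more intervals, 3-member blocks were set beside all windows of 3. In glia 32.1% (30.9% to 33.3%) of these blocks had a gap, against 37.9% of the windows, and in GNP 35.6% (34.4% to 36.9%), against 39.2%. In-register 3-member blocks had a gap in 24.8% (23.8% to 25.7%) in glia and in 38.4% (37.4% to 39.5%) in GNP. Gaps were therefore less frequent at offset blocks than at windows of 3 in both maps. This follows partly from the limits, which exclude GNP nucleosomes over 95 bp from glia in wide glia intervals and shorten part of the GNP spacing. How much of the difference they account for was not tested. At in-register blocks the difference from windows of 3 was larger in glia, and in GNP their interval includes the value for windows. Their limit of 10 bp also excludes GNP nucleosomes far from glia in wide glia intervals. How much of the glia difference it accounts for was not tested either. Among the 274 blocks of 6 or more members, 53.3% had a gap in glia (47.4% to 59.1%) and 47.1% in GNP (41.3% to 53.0%). The order of the maps turned round when blocks were found from the glia map, where 41.2% had a gap in glia and 31.7% in GNP.

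Blocks were spread over all 6 arms. Per 1000 GNP nucleosomes there were 16.1 blocks overall (95% Poisson interval 15.7 to 16.4). Values were 16.3 on 2L, 3L and 3R, 15.6 on X (14.8 to 16.4) and 15.5 on 2R (14.7 to 16.3), and these 5 arms do not differ beyond their intervals. The small arm 4, the dot chromosome, which is largely heterochromatic, had the highest value, 19.98 (16.4 to 24.2) from 106 blocks. Its interval touches those of 2L, 3L, 3R and X. Of all GNP nucleosomes on arm 4, 23.2% lay at 65 to 95 bp, against 21.7% to 22.2% on the other arms. A block needs at least 3 of them in a row, so a higher share alone raises the number of blocks. How much of the arm 4 value it accounts for was not tested. Blocks in register had the opposite order on arm 4, with 18.5 per 1000 (15.0 to 22.5), the lowest of the 6 arms, and 20.7 to 24.5 on the others. Offset blocks outnumbered in-register blocks only on arm 4, by 106 to 98, and the interval of one includes the value of the other. The share of blocks in 1 direction lay between 17.0% on arm 4 and 21.1% on 3L, and the median GNP spacing was 182 bp on 5 arms and 183 bp on 3R.

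**Figure D5:**
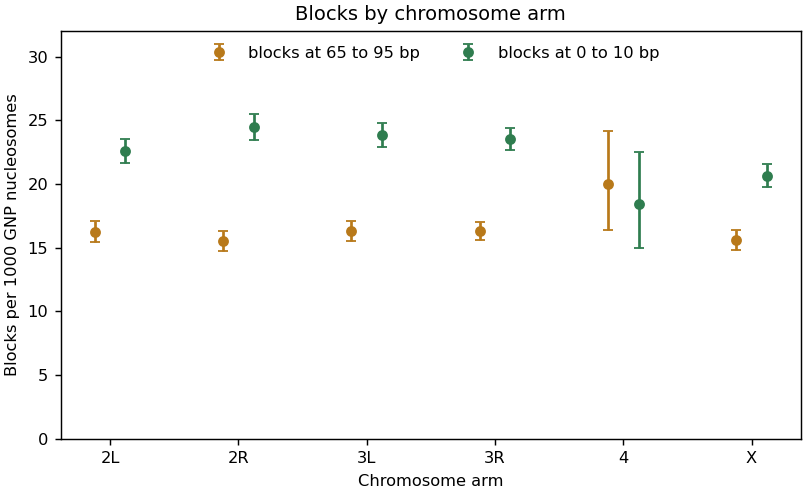
Blocks per 1000 GNP nucleosomes (vertical axis) on each chromosome arm (horizontal axis), for offset blocks at 65 to 95 bp (ochre) and blocks in register at 0 to 10 bp (green), with 95% Poisson intervals. Offset blocks lie between 15.5 and 16.3 on 5 arms and at 19.98 on arm 4, where the 2 kinds overlap.

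Along the arms, blocks were dispersed. Neighbouring blocks were separated by a median of 40 other nucleosomes or 9146 bp, and at most by 203319 bp. In 188 of 8381 neighbouring pairs (2.24%) a single nucleosome stood between the blocks. Over 119 windows of 1 Mb with at least 2000 GNP nucleosomes, the number per 1000 had a median of 15.9 and ranged from 11.3 on 3R (window starting at 18000000, 51 blocks, 8.38 to 14.8) to 21.8 on 2L (window starting at 15000000, 90 blocks, 17.5 to 26.8). These extremes were named after their values were seen. Every window had at least 39 blocks, so no region of this size was without them. Across windows, the numbers of offset and in-register blocks were weakly and inversely related (Pearson r = -0.33, Spearman rho = -0.23, n = 119, as a description). Both come from the same pair of maps, and a nucleosome can belong to 1 kind of block only.

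The rule starts from the GNP map, so it was also run from the glia map, with each glia nucleosome set against the closest GNP start. This gave 7864 blocks with 27084 glia nucleosomes, which had a median distance of 185 bp. In either run, then, the members of the map that defined the blocks were closer together than that map as a whole. Of the glia-based blocks, 5082 (64.6%, 63.6% to 65.7%) overlapped a GNP-based block. Of the GNP-based blocks, 5090 (60.7%, 59.6% to 61.7%) overlapped a glia-based one. More than 1 in 3 blocks of either kind were thus found from 1 map only, although both runs used the same pair of maps and the same limits.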

How the data were processed

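The nucleosome lists were deposited by the authors, who mapped the single-end MNase-seq reads to dm3 with Bowtie 0.12.7, retained reads with 1 location and predicted nucleosomes with GeneTrack, whose settings are not given in the sources used here. Each deposited file holds the chromosome, start and end of each nucleosome and no other value. End minus start was 146 bp throughout and no 2 starts on an arm lay closer than 147 bp. Positions are printed as deposited, with an uncertainty of 1 bp, since counting from 0 or from 1 could not be settled. Depth is unknown. Of 12 samples, 2 were analysed, and 10 ChIP-seq samples were not analysed here. Genes and base composition were also not analysed here, because the gene table at hand is of another build.

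Distances, blocks and intervals (95%, Wilson for shares, exact Poisson for numbers) were computed with Python 3.11.15, numpy 2.4.6, pandas 2.3.3 and scipy 1.17.1, and block finding was tested on simulated data. Dyad distances equal start distances. A free stretch was the distance between starts minus 146 bp. The members and comparison classes were chosen with earlier results of these data known. Named blocks are the 5 with the most members, the longest on each arm, the longest displaced in 1 direction each way and the longest with 1 glia dyad in every interval. Length was counted in members, with ties going to the smaller SD of the signed differences. Alternatives changed the limits, the minimum size, the neighbour distance, the starting map and the pairing of closest nucleosomes.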

Additional observations from a re-analysis of the deposited data

How the results depend on the processing

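Of 48 values recomputed (8 results under 6 alternatives), 6 stayed within the interval of the reported value, or within 1.5-fold for the number of blocks, and 42 moved. The intervals are narrow, so small shifts count as moved. Each alternative changes which blocks are found by its construction, and no other cause was tested. With limits of 60 to 100 bp there were 13686 blocks, of which 19.3% were displaced in 1 direction. Members near the middle of a glia interval made up 41.1%, the median GNP distance was 184 bp, 91.7% of intervals held exactly 1 glia dyad, 50.9% of flanks were in register, and 37.4% of blocks had a gap in glia and 39.9% in GNP. In the same order, limits of 70 to 90 bp gave 3672 blocks, 47.3% near the middle, 179 bp, 93.0% with 1 dyad, 39.8% of flanks in register, and gaps at 32.6% in glia and 35.2% in GNP. A minimum of 4 members gave 2672 blocks, 10.2% in 1 direction, 46.2% near the middle, 91.9% with 1 dyad, and gaps at 40.9% in glia and 43.0% in GNP. Neighbours at most 300 bp apart gave 45.4% near the middle, 180 bp, 95.3% with 1 dyad, 43.7% of flanks in register, and gaps at 32.6% in glia and 30.9% in GNP. The rule started from the glia map mirrors the quantities. It gave 22.1% in 1 direction, 47.5% of glia members near the middle of a GNP interval, a median glia distance of 185 bp, 92.0% of intervals with 1 GNP dyad, 46.4% of flanks in register, and gaps at 41.2% in glia and 31.7% in GNP. The map from which the rule starts is also searched beyond the block ends, so the gap shares of the 2 maps cannot be compared with each other. Mutually closest pairs gave 3570 blocks, 52.4% in 1 direction, 47.0% near the middle, 197 bp, 89.2% with 1 dyad, 37.3% of flanks in register, and gaps at 26.9% in glia and 42.7% in GNP.

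No paired analysis was possible because each cell type has 1 library and no test was run. With 1 library each, differences between libraries and between cell types cannot be told apart. The lists carry no read counts, so missing reads and missing nucleosomes cannot be told apart. A start also represents an average over many cells, and nucleosomes that share a position within the smallest permitted distance appear as 1, so mixed positions cannot be seen. Neighbouring nucleosomes are not independent, and the intervals are therefore too narrow.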
